A study of Mus musculus with 22 samples.

Results

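Clones shared between the extravascular and the intravascular B cell compartment of the kidney were examined in 11 mice. A clone was defined by the nucleotide sequence of its heavy chain junction, the stretch from the last conserved cysteine of the V segment to the tryptophan of the J segment that encodes the CDR3. The 75 shared clones were chosen by one criterion, that the same junction was read in both libraries of a mouse, extravascular and intravascular, out of 6537 clones of the 11 mice. They comprised 19 clones of the PBS mice and 56 of the UPEC mice, and 54 distinct junctions. The number of shared clones therefore describes how the criterion was met, while V and J segment, N nucleotides, isotype and presence in other mice were not part of it. N length, presence in other mice and V and J segment are nevertheless not independent of it. Junctions without N nucleotides coincide more readily between libraries. Of 111 matches between different mice of the same group, 100 carried Ighv11-2, and all 27 shared clones with Ighv11-2 used Ighj1.

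The mice were wild-type C57BL/6 females, 8 to 10 weeks of age, whose urinary bladders had been inoculated repeatedly with PBS (6 mice) or with uropathogenic Escherichia coli (UPEC, 5 mice). No mouse carried a mutant allele or a transgene. Kidneys were taken at day 56, after circulating leukocytes had been labelled by an anti-CD45 antibody injected into the vein shortly before death, and live B cells were sorted into labelled (intravascular) and unlabelled (extravascular) cells. B cells that were inside vessels but escaped the antibody would count as extravascular, and the tables hold only Igh sequences, so no marker of the B cell subsets could be checked in them. The comparison made here is between PBS and UPEC mice, in the receptors held by both compartments of an animal.

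The 22 libraries held 17178 sequences, where a sequence is a line of a table, and 123192 reads. The extravascular libraries held between 244 and 2134 sequences and the intravascular ones between 344 and 938. The smallest was the extravascular library of UPEC mouse 1, and the largest intravascular library was that of UPEC mouse 4. UPEC mouse 4 stood apart from all others with 32 shared clones. The main tests that involve the UPEC group are therefore given with and without it, and some alternatives only with it. PBS mouse 6 had no shared clone and gave no value to measures that average over shared clones.

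A heavy chain gene is assembled from V, D and J segments, and the enzyme terminal deoxynucleotidyl transferase can add N nucleotides, which are not encoded in the germline, at the V-D and D-J joints. The enzyme is largely absent in fetal life, and receptors of B-1a cells, many of which arise then, often carry few N nucleotides. Ighv11-2 and Ighv12-3 are the V segments of the classical B-1a receptors that bind phosphatidylcholine, commonly joined to Ighj1. A junction without N nucleotides can arise independently in different animals, whereas a junction with many N nucleotides is rarely made again.

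The junctions below belong to shared clones that recurred in several mice. Bases in capitals are N nucleotides as annotated by IMGT/V-QUEST. A clone is named by the family of its V segment and a letter. The clones V11-a, V11-b and V11-c joined Ighv11-2 to Ighj1 and carried none, and V12-a and V12-b joined Ighv12-3 to Ighj1.
V11-a: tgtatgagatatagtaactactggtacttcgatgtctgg
V11-b: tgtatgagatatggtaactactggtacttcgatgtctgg
V11-c: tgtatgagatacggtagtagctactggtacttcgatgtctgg
V12-a: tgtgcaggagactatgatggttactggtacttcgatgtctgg
V12-b: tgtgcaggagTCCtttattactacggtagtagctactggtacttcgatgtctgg

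The following junctions were large in both compartments of a mouse or the largest shared clone of their mouse. They show the range from no N nucleotides, in V3-a of PBS mouse 1, V12-c of PBS mouse 5 and V12-g of UPEC mouse 3, to 15 in V3-b of UPEC mouse 4. V12-h, V12-i and V3-e were also clones of UPEC mouse 4, V12-f was a clone of UPEC mouse 5 and V3-f of UPEC mouse 1.
V3-a: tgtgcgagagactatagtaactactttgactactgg
V12-c: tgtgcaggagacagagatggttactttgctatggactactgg
V12-g: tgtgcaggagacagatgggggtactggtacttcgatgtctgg
V12-f: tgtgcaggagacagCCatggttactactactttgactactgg
V12-h: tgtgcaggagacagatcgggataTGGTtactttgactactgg
V12-i: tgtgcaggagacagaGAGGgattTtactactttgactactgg
V3-b: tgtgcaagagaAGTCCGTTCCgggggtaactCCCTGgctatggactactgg
V3-e: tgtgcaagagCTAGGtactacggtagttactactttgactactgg
V3-f: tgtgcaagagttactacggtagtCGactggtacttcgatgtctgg

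All these segments lie in the heavy chain locus on the minus strand of chromosome 12 (GRCm38, GENCODE vM21). Ighv11-2 is at chr12:114048241-114048812, Ighv12-3 at chr12:114366521-114366954 and Ighj1 at chr12:113429781-113429833. Ighv3-3, the V segment of V3-a, is at chr12:114196439-114196875, and Ighv3-6, that of V3-b, is at chr12:114288152-114288582.

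Shared clones were few in most mice. PBS mice 1 to 6 had 9, 2, 2, 4, 2 and 0 shared clones, and UPEC mice 1 to 5 had 9, 3, 6, 32 and 6. The groups overlapped, although 4 of 6 PBS mice lay below every UPEC mouse. The mean was 3.17 ± 3.13 (SD, n = 6) in PBS mice and 11.2 ± 11.8 (SD, n = 5) in UPEC mice, a difference of 8.03 that did not pass the threshold of 0.05 (Mann-Whitney test, exact and two-sided, p = 0.0671, adjusted over the 14 comparisons between groups 0.343). Without UPEC mouse 4 the difference was 2.83 (p = 0.143, exact). Without PBS mouse 1 it was 9.2 (exact p = 0.0159) and without UPEC mouse 2 it was 10.1 (exact p = 0.0429), so single mice decided on which side of the threshold the unadjusted value lay. The smallest p that the design allows is 0.004329.

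Mice with more junctions have more chances of a match, so the number was also expressed per 10000 pairs of an extravascular and an intravascular junction. On this scale PBS mice 1 to 6 had 0.733, 0.164, 0.179, 0.477, 0.337 and 0, and UPEC mice 1 to 5 had 1.45, 0.549, 0.623, 2.32 and 0.76. PBS mouse 1 alone lay within the range of the UPEC mice. The means differed by 0.827 (exact Mann-Whitney unadjusted p = 0.0173; without UPEC mouse 4, 0.532, p = 0.0381). Matches with the intravascular libraries of other mice of the group were also more frequent in UPEC mice on this scale. Their mean was 0.192 (range 0.141 to 0.274) in PBS mice and 0.334 (range 0.256 to 0.423) in UPEC mice. When each library was instead thinned to the 244 sequences of the smallest one, the expected numbers were 3.83, 0.516, 1.34, 2.04, 1.27 and 0 in PBS mice 1 to 6 and 7.41, 1.18, 3.79, 8.62 and 2.69 in UPEC mice 1 to 5. At this number of sequences UPEC mouse 4 lay close to UPEC mouse 1, and the difference of 3.24 did not pass (exact p = 0.126; without UPEC mouse 4, 2.27, p = 0.257). Both scales were alternatives to the plain number, and they lay on different sides of the threshold.

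Coincidence of junctions between animals set the background. Every extravascular library was compared with the intravascular libraries of the other mice of its group, in 30 pairs of PBS mice and 20 pairs of UPEC mice. Between PBS mice a pair had 1.87 junctions in common on average (range 0 to 5), and between UPEC mice 2.75 (range 1 to 6). In the 60 pairs that crossed the groups the mean was 2.25. The 111 matches between mice of the same group came from only 20 distinct junctions. Ighv11-2 carried 100 of them (90.1%), and 100 had no N nucleotides. The junction that matched most often gave 45 matches and the next 32.

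**Figure D1:**
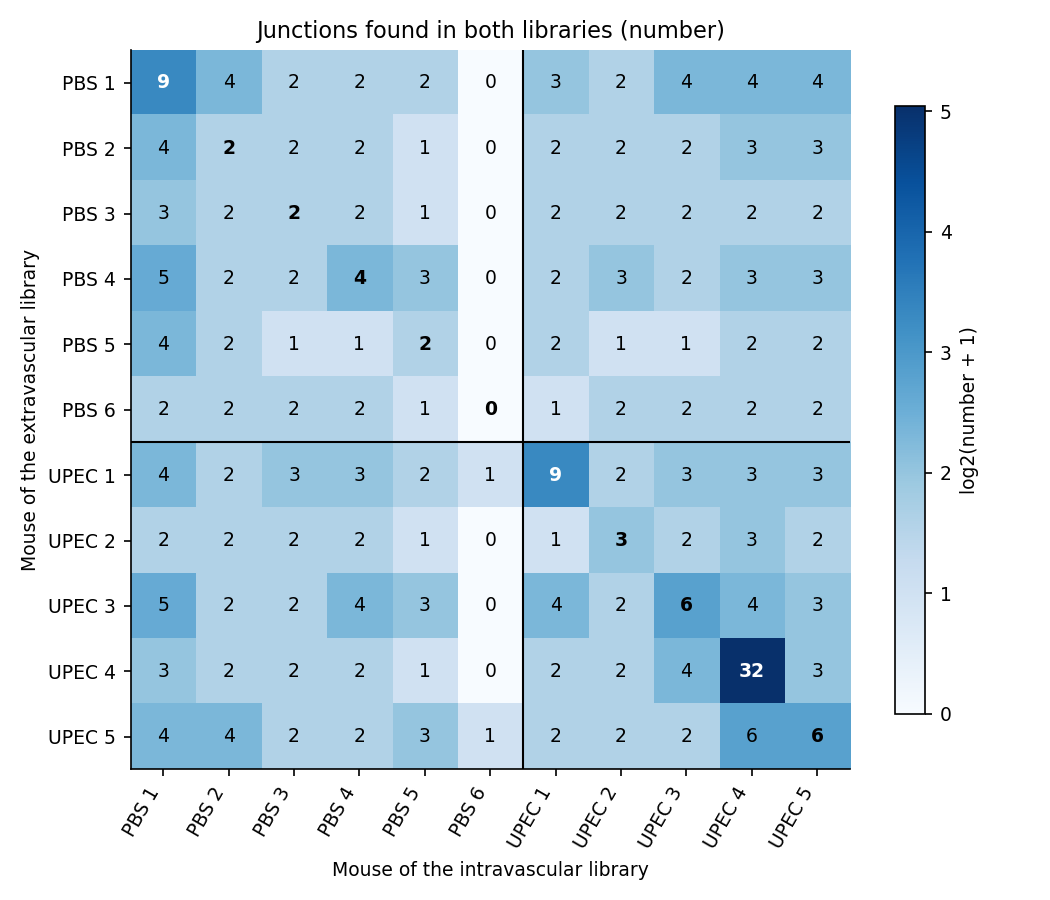
Number of junctions found in both the extravascular library of the mouse on the vertical axis and the intravascular library of the mouse on the horizontal axis, with darker cells for more (log2 scale) and bold numbers where both come from the same mouse. The cell of UPEC mouse 4 holds 32, whereas all cells of different mice hold at most 6.

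Against this background, 10 of 11 mice had more junctions in common between their own libraries than with the mean of the other mice of their group, the exception being PBS mouse 6. Against single mice this did not hold throughout. The extravascular libraries of PBS mice 2 to 5 had 4, 3, 5 and 4 junctions in common with the intravascular library of PBS mouse 1, more than with their own, and those of UPEC mice 2 and 5 had as many in common with UPEC mouse 4 as with themselves, 3 and 6. In PBS mice 1 to 6 the number beyond the mean over the other mice was 7, 0.2, 0.4, 1.6, 0.4 and -1.8, and in UPEC mice 1 to 5 it was 6.25, 1, 2.75, 29.25 and 3. Values of 5 PBS mice were thus within 2 clones of the background. The intravascular library of PBS mouse 6 had 0 junctions in common with every extravascular library of PBS mice, which lowered their background. With that library left out of the background, PBS mice 2, 3 and 5 were no longer above it. The PBS mean without PBS mouse 6 was 1.45 (exact signed-rank p = 0.5). Over all 11 mice the mean was 4.55 and the median 1.6 (exact two-sided signed-rank test, p = 0.0127; without UPEC mouse 4, mean 2.25, p = 0.0254). The mean was 1.3 in PBS mice (exact p = 0.3125, above 0 in 5 of 6) and 8.45 in UPEC mice (above 0 in 5 of 5, exact p = 0.0625, the smallest that 5 mice allow; without UPEC mouse 4, 3.67, p = 0.125). The groups differed by 7.15, which did not pass the threshold (exact Mann-Whitney p = 0.0736, adjusted 0.343; without UPEC mouse 4, 2.37, p = 0.152). Without PBS mouse 1 the difference was 7.85 (exact p = 0.0238). For each mouse left out, the background was also taken without that mouse. With the values beyond the background printed here, the mean of UPEC mice without UPEC mouse 4 was 3.25. When only clones with at least 2 sequences in each compartment were counted, the mean over all mice was 1.51 (exact p = 0.0869; without UPEC mouse 4, 1.13, p = 0.139). When junctions seen in a mouse outside the compared pair were left out, it was 3.6 (exact p = 0.0508; without UPEC mouse 4, 1.38, p = 0.0391). Leaving these out also removes most matches that make up the background, so a mean above 0 is then largely set by the filter.

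**Figure D2:**
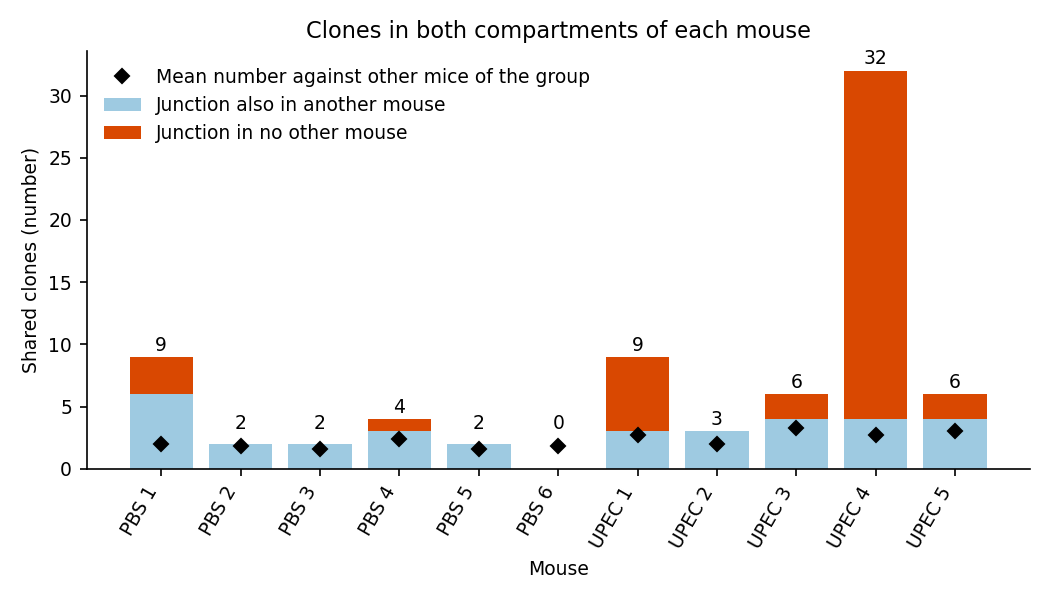
Number of shared clones of each mouse, split into junctions that were also read in another mouse and junctions read in no other mouse, with diamonds for the mean number in common with the intravascular libraries of the other mice of the group. The diamonds lie between 1.6 and 3.25, and the bar of UPEC mouse 4 consists mostly of junctions in no other mouse.

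The recurrent Ighv11-2 junctions made up much of what the compartments shared. V11-a was read in all 11 mice and in 21 of 22 libraries, the intravascular library of PBS mouse 6 being the exception, and was a shared clone in 10 mice. In PBS mice 1 to 6 it had 45, 1, 60, 10, 4 and 5 extravascular and 6, 1, 1, 2, 1 and 0 intravascular sequences. In UPEC mice 1 to 5 it had 3, 2, 13, 36 and 1 extravascular and 1, 1, 1, 10 and 1 intravascular sequences. The ranges of the groups overlapped in both compartments. As a percentage of the library, V11-a took 1.3 ± 1.3 (SD, n = 6) of extravascular and 0.369 ± 0.356 of intravascular sequences in PBS mice, and 1.53 ± 1.92 (SD, n = 5) and 0.414 ± 0.367 in UPEC mice. It was the larger in the extravascular library in 5 of 6 PBS mice and 4 of 5 UPEC mice.

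V11-b differed from V11-a by 1 base, written A13G with positions counted from the first base of the junction, and was a shared clone in 8 mice. In PBS mice 1 to 6 it had 38, 6, 25, 35, 0 and 2 extravascular and 1, 1, 3, 2, 0 and 0 intravascular sequences. In UPEC mice 1 to 5 it had 5, 3, 4, 1 and 1 extravascular and 0, 1, 2, 42 and 1 intravascular sequences. As a share of the library V11-b was the larger in the extravascular library in 5 of 6 PBS mice and 3 of 5 UPEC mice. The gap in the opposite direction was widest in UPEC mouse 4, with 4.48% of its intravascular and 0.135% of its extravascular sequences, and UPEC mouse 5 had 0.265% and 0.117%. V11-c was a shared clone in PBS mouse 1 and in UPEC mice 1, 4 and 5, with at most 4 extravascular and 2 intravascular sequences in each of these.

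Beyond Ighv11-2, the junctions shared in more than 1 mouse were V12-a and V12-b. V12-a had 133 extravascular sequences and 1 intravascular sequence in UPEC mouse 3, and 2 and 7 in UPEC mouse 1. It also had 215 extravascular sequences in PBS mouse 1, where no intravascular sequence of it was read. V12-b, with 3 N nucleotides, had 8 extravascular and 3 intravascular sequences in PBS mouse 1, and 12 and 3 in UPEC mouse 3. It was read in no other mouse.

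The share of each library that belonged to shared clones followed a different order from their number. In PBS mice 1 to 6, shared clones held 29%, 0.492%, 4.97%, 5.51%, 16.1% and 0% of extravascular sequences. In UPEC mice 1 to 5 they held 6.15%, 0.875%, 18.7%, 17.6% and 3.51%. The 95% Wilson interval of the highest value, in PBS mouse 1, was 27.1% to 31%, that of UPEC mouse 1, from the smallest library, was 3.76% to 9.89%, and the upper bound of the 0% in PBS mouse 6 was 0.334%. Such intervals cover counting error only, and sequences with a single read had been left out of the tables. The groups overlapped widely and the means, 9.35% ± 11.2 (SD, n = 6) and 9.37% ± 8.25 (SD, n = 5), differed by 0.0198 percentage points (exact Mann-Whitney p = 0.662; without UPEC mouse 4, -2.05, p = 0.914).

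In blood, by contrast, the shares were small in PBS mice. Shared clones held 3.62%, 0.499%, 0.803%, 1.31%, 0.581% and 0% of the intravascular sequences of PBS mice 1 to 6, and 6.41%, 0.865%, 2.93%, 15.6% and 4.24% of those of UPEC mice 1 to 5. UPEC mouse 2 fell among the PBS mice and PBS mouse 1 among the UPEC mice. The means were 1.14% ± 1.29 (SD, n = 6) and 6% ± 5.71 (SD, n = 5), or 4.87 percentage points apart (exact Mann-Whitney unadjusted p = 0.0303, adjusted 0.343). This was the smallest p of the 14 comparisons, and it did not hold after adjustment. Without UPEC mouse 4 the difference was 2.48 (exact p = 0.0667). It was also above the threshold without each of UPEC mice 1 and 5 and PBS mice 2, 3, 5 and 6, with values between 4.64 and 5.31.

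**Figure D3:**
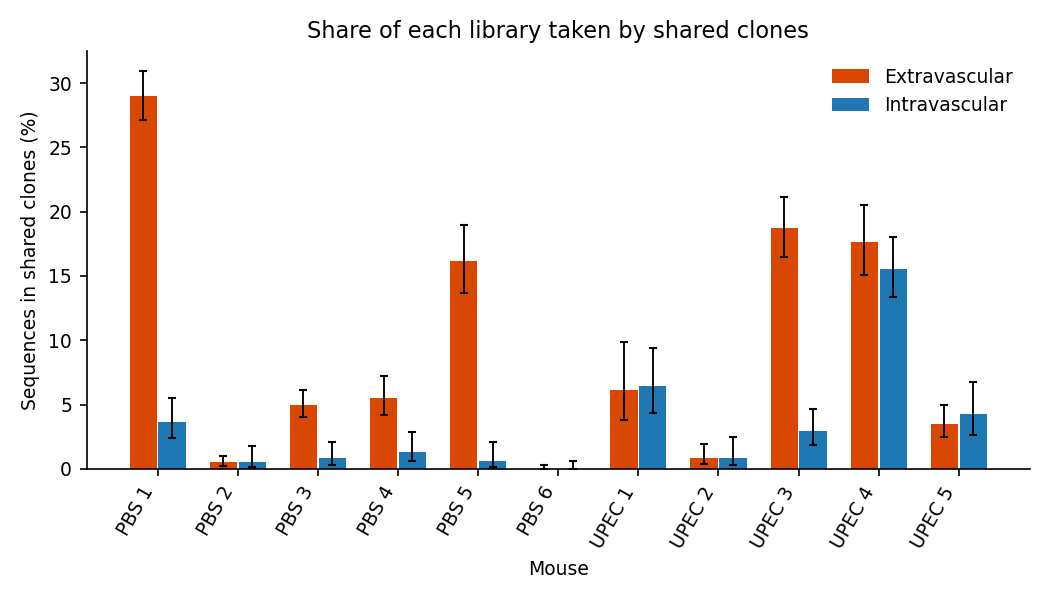
Percentage of the sequences of each library that belonged to shared clones, by mouse and compartment, with 95% Wilson intervals. Extravascular bars are far above intravascular ones in PBS mice 1 and 5 and UPEC mouse 3, and of similar height in UPEC mice 1, 2, 4 and 5.

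Within mice, the extravascular minus intravascular share was 25.4, -0.00718, 4.17, 4.19, 15.6 and 0 percentage points in PBS mice 1 to 6 and -0.259, 0.0101, 15.8, 2.07 and -0.735 in UPEC mice 1 to 5. Single clones made up the high values. V3-a held 431 of the 619 extravascular sequences in shared clones of PBS mouse 1 (69.6%), against 4 intravascular sequences. V12-c held 117 extravascular sequences of PBS mouse 5 (96.7% of those in shared clones) against 1 intravascular sequence, and V12-a held 64.6% in UPEC mouse 3. The mean difference was 8.22 points in PBS mice (exact signed-rank p = 0.125, 4 mice above 0 and 1 below) and 3.37 points in UPEC mice (exact p = 0.625, 3 above and 2 below; without UPEC mouse 4, 3.69, p = 1). Neither could pass the threshold, since PBS mouse 6 had a difference of 0 and the smallest p that 5 differences allow is 0.0625.

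A typical shared clone was small. Its median size was 8 extravascular sequences and 1 intravascular sequence in PBS mice, and 1 and 1 in UPEC mice. Without UPEC mouse 4 the medians in UPEC mice were 2.5 and 1. These are plain counts, and the extravascular libraries held 1343 sequences on average in PBS mice and 726 in UPEC mice. In PBS mice 4 of 19 shared clones were read as a single sequence in each compartment, and in UPEC mice 21 of 56, of which 16 were from UPEC mouse 4. Relative to library size, 13 of 19 clones were larger in the extravascular library in PBS mice, and 37 of 56 in UPEC mice. For a clone of a single sequence in each compartment this direction follows from the sizes of the libraries alone, and all 16 such clones of UPEC mouse 4 counted as larger in the extravascular one. Of the clones with more than 1 sequence in a compartment, 13 of 15 were larger in the extravascular library in PBS mice and 19 of 35 in UPEC mice, or 12 of 19 without UPEC mouse 4. The ratio of both shares was compared through the median over the clones of each mouse. On the log2 scale, it was -0.46, -0.54, 2.7, 0.7 and 3.31 in PBS mice 1 to 5 and -0.44, 0.02, 1.63, 0.34 and -0.72 in UPEC mice 1 to 5. Both groups held mice on either side of 0, and their means differed by -0.98 (exact Mann-Whitney p = 0.548, n = 5 and 5; without UPEC mouse 4, -1.02, p = 0.556). The 0.34 of UPEC mouse 4 is the ratio of its library sizes. In an alternative chosen after the data were seen, clones of a single sequence in each compartment were left out. The medians were then 2.2, 0.76, 2.7, 0.7 and 3.31 in PBS mice 1 to 5 and -0.44, 0.31, 1.63, -0.53 and 0.07 in UPEC mice 1 to 5, and the means differed by -1.73 (exact Mann-Whitney unadjusted p = 0.0317; without UPEC mouse 4, -1.54, p = 0.0635).

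Clones that were sizeable in both compartments were rare. At least 5 sequences in each compartment were reached by 1 clone of the PBS mice, V11-a in PBS mouse 1, and by 7 clones of the UPEC mice. In UPEC mouse 4 these were V11-a, V3-b with 22 extravascular and 8 intravascular sequences, V12-h with 9 and 8, V3-e with 6 and 10, and V12-i with 5 and 26. V12-g had 18 and 7 sequences in UPEC mouse 3, and V12-f had 19 and 10 in UPEC mouse 5. Except for V11-a and V12-h, which also had 5 extravascular sequences in UPEC mouse 3, none of these was read in a second mouse. In UPEC mouse 1, V3-f had 3 extravascular and 6 intravascular sequences, the most extravascular sequences of its shared clones together with V11-a.

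**Figure D4:**
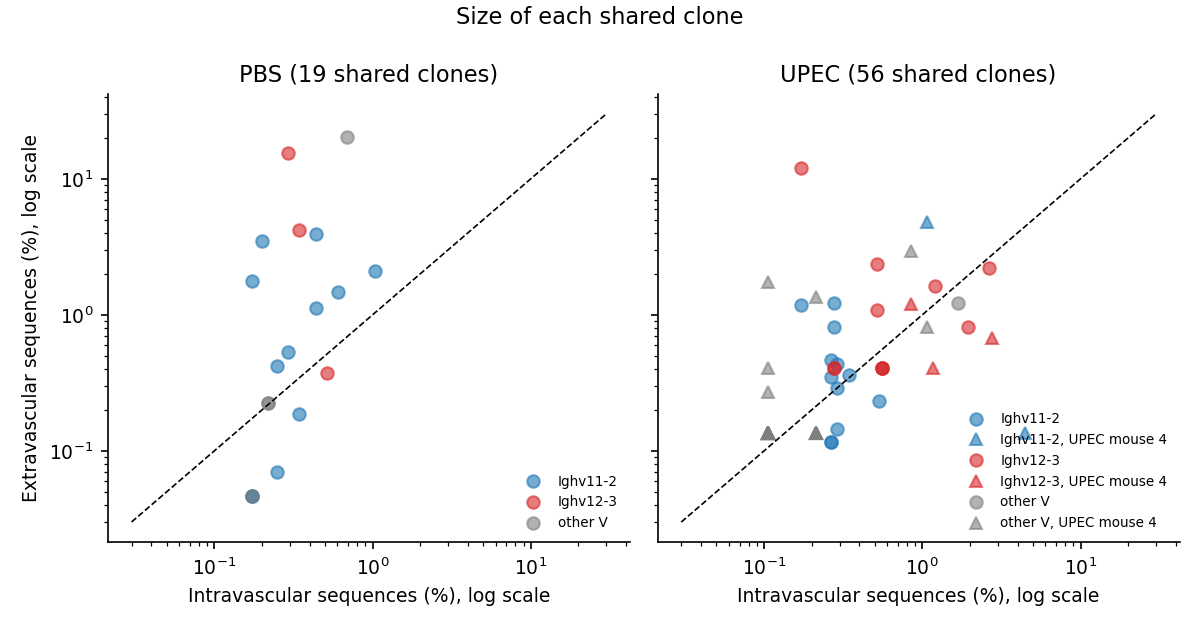
Percentage of extravascular against intravascular sequences for each shared clone (both axes log scale), PBS mice on the left and UPEC mice on the right, with triangles for UPEC mouse 4, colours for the V segment and a dashed line at equal size. Clones of PBS mice reach 20.2% of extravascular but at most 1.03% of intravascular sequences, while V11-b of UPEC mouse 4 lies furthest below the line.

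Ighv11-2 and Ighv12-3 together made up at least 50% of the shared clones of every mouse but UPEC mouse 4. Ighv11-2 was carried by 12 of 19 shared clones of PBS mice and 15 of 56 of UPEC mice, and Ighv12-3 by 3 and 16. Of the 24 shared clones of UPEC mice without UPEC mouse 4, 12 carried Ighv11-2 and 11 carried Ighv12-3. The percentage with either segment was 77.8, 100, 100, 50 and 100 in PBS mice 1 to 5, and 88.9, 100, 100, 25 and 100 in UPEC mice 1 to 5. Among the other clones of the 10 mice that had shared clones, either segment was carried by between 5.28% and 21%. This was below the value of the shared clones in each of these mice. Of the 111 matches between mice of the same group, 100 carried Ighv11-2, against 27 of the 75 shared clones. The contrast with other clones is therefore a description, and no test of it is given. Between the groups the percentage differed by -2.78 points (exact Mann-Whitney p = 1; without UPEC mouse 4, 11.7, p = 0.563).

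The segments differed in how their clones were distributed. The 27 shared clones with Ighv11-2 came from 8 distinct junctions, and 26 of them were also read in another mouse. The 19 with Ighv12-3 came from 17 distinct junctions, and 6 were read in another mouse. Ighv12-3 junctions read in no other mouse numbered 1 in PBS mouse 1, 5 in UPEC mouse 1, 2 in UPEC mouse 3, 4 in UPEC mouse 4 and 1 in UPEC mouse 5, and none in the remaining 6 mice.

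Of the remaining V segments, Ighv3-6 was carried by 7 shared clones, all of UPEC mouse 4. Ighv3-1 was carried by 4, of which 3 were from UPEC mouse 4 and V3-f from UPEC mouse 1, and Ighv5-17 by 4, of which 3 were from UPEC mouse 4 and 1 from PBS mouse 4. Ighv5-6 was carried by 3 shared clones, Ighv3-3, Ighv5-4 and Ighv13-2 by 2 each. Both Ighv3-3 clones were from PBS mouse 1, and the smaller of them, V3-p, differed from V3-a by T13G. In all, the shared clones of UPEC mouse 4 used 13 V segments, against 5 in the 6 PBS mice and 3 in the other 4 UPEC mice.

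Ighj1 was the J segment of 15 of 19 shared clones of PBS mice and 29 of 56 of UPEC mice, or 21 of 24 without UPEC mouse 4. Per mouse it was carried by 77.8%, 100%, 100%, 75% and 50% of shared clones in PBS mice 1 to 5 and by 77.8%, 100%, 100%, 25% and 83.3% in UPEC mice 1 to 5. The groups overlapped, and the difference was -3.33 points (exact Mann-Whitney p = 0.905; without UPEC mouse 4, 9.72, p = 0.46). Among the other clones of these 10 mice Ighj1 was carried by between 20.5% and 30%, and by 20.6% in UPEC mouse 4. All 27 shared clones with Ighv11-2 used Ighj1, so this contrast is a description too. Of its 32 shared clones, UPEC mouse 4 had Ighj2 in 13, Ighj1 in 8, Ighj3 in 7 and Ighj4 in 4.

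Shared clones carried few N nucleotides. Their mean N length was 1.44, 0, 0, 1 and 0 in PBS mice 1 to 5 and 1.56, 0, 0.667, 4.53 and 0.667 in UPEC mice 1 to 5. In PBS mouse 1 it was 0.833 without V11-f, V11-g and V3-p. These 3 differ by 1 base from a larger clone and were shared clones in no other mouse. V11-b, also 1 base from a larger clone but a shared clone in 8 mice, was kept. In the other clones of these 10 mice the mean N length was between 5.18 and 6. The mean was lower in the shared clones of all 10 mice, with an average difference of -4.64 nucleotides (without UPEC mouse 4, -5.01). Junctions in common between different mice of a group were also short of N nucleotides, with none in 100 of 111 matches, against 34 of the 75 shared clones. The contrast with other clones is therefore a description, and no test of it is given. The difference was least in UPEC mouse 4, where it was -1.38 nucleotides. It was -5.12 ± 0.88 (SD, n = 5) in PBS mice and -4.17 ± 1.64 (SD, n = 5) in UPEC mice. The groups differed by 0.95 nucleotides, which did not pass the threshold (exact Mann-Whitney p = 0.31; without UPEC mouse 4, 0.26, p = 0.556). Weighted by extravascular sequences, the difference between groups was 1.57 nucleotides (exact p = 0.0317; without UPEC mouse 4, 0.66, p = 0.0635).

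**Figure D5:**
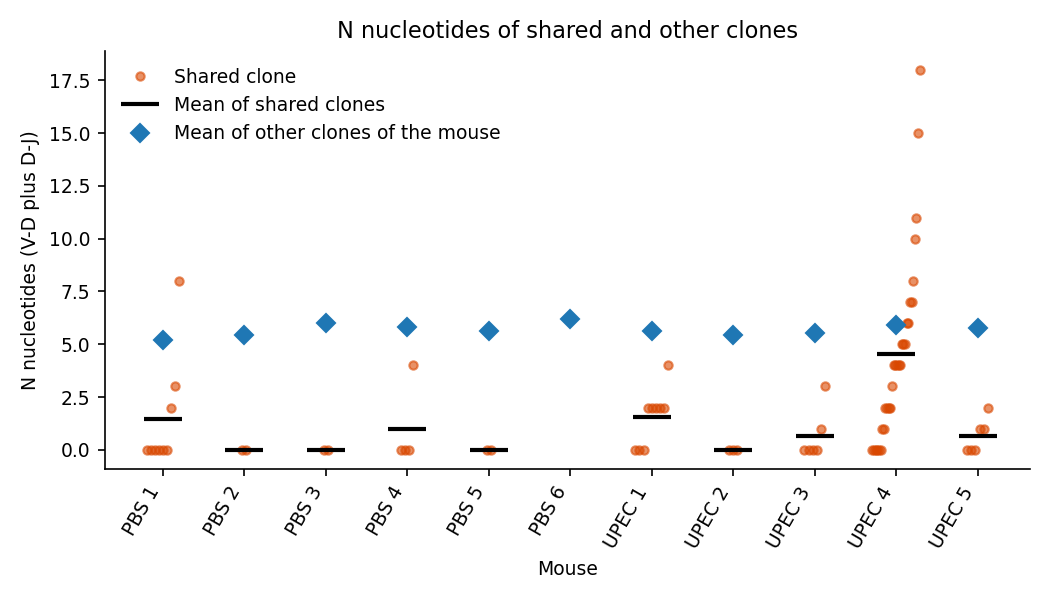
N nucleotides (V-D plus D-J) of every shared clone (points), their mean in each mouse (bars) and the mean of the other clones of that mouse (diamonds). The means of the other clones lie between 5.18 and 6.17, and only in UPEC mouse 4 do shared clones spread widely, up to 18 nucleotides.

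No N nucleotides were annotated in 15 of 19 shared clones of PBS mice and 19 of 56 of UPEC mice, or 13 of 24 without UPEC mouse 4. The percentage per mouse was 66.7, 100, 100, 75 and 100 in PBS mice 1 to 5 and 33.3, 100, 66.7, 20 and 50 in UPEC mice 1 to 5, which overlapped between 66.7 and 100. Among the other clones of these mice it was between 4.52 and 11.8. The difference, UPEC minus PBS, was -34.3 points, without passing the threshold (exact Mann-Whitney p = 0.103, adjusted 0.361; without UPEC mouse 4, -25.8, p = 0.206; without UPEC mouse 2, -45.8, p = 0.0238). At least 5 N nucleotides were carried by 1 shared clone of PBS mice and by 12 of UPEC mice, all 12 in UPEC mouse 4. The clone of PBS mice, V11-g with 8, differed from V11-b by T29G, and 1 of the 12, V12-p with 10, differed from V12-i by T32G. Both were a single sequence in each library, and the larger clones have 0 and 5 N nucleotides. The median over Ighv11-2 clones was 0, over Ighv12-3 clones 2 and over clones of other V segments 4 nucleotides. 2 clones of UPEC mouse 4 had no D segment assigned and have no N length.

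The recurrence of a shared junction in other animals ran alongside its N length. It was read in another mouse in 66.7%, 100%, 100%, 75% and 100% of shared clones of PBS mice 1 to 5, and in 33.3%, 100%, 66.7%, 12.5% and 66.7% of those of UPEC mice 1 to 5. Among other clones, 0.634% to 3.58% were read in another mouse, below the shared clones in all 10 mice. No test of this contrast is given either, since a junction present in many mice can also be met in both libraries of a mouse. The difference, UPEC minus PBS, was -32.5 points, which did not pass the threshold (exact Mann-Whitney p = 0.135, adjusted 0.378; without UPEC mouse 4, -30, p = 0.0397; without UPEC mouse 2, -43.5, p = 0.0317). The junctions of a mouse left out then also no longer counted as those of another mouse. With the percentages printed here, the mean of UPEC mice without UPEC mouse 4 was 66.7, against 88.3 in PBS mice. Of the 33 shared clones that recurred, 28 had no N nucleotides, as had 6 of the 42 that did not.

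Clones read in no other mouse numbered 3, 0, 0, 1, 0 and 0 in PBS mice 1 to 6 and 6, 0, 2, 28 and 2 in UPEC mice 1 to 5. The groups overlapped here too, with 4 PBS mice and UPEC mouse 2 at 0, and the mean was higher by 6.93 in UPEC mice (exact Mann-Whitney p = 0.102). Without UPEC mouse 4, whose junctions then no longer counted as those of another mouse, it was higher by 2.08 (exact p = 0.0762).

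Whether both compartments held the same receptor beyond the junction was examined on the whole V-D-J sequence. At least 1 V-D-J sequence was identical between compartments in 7 of 9, 0 of 2, 2 of 2, 4 of 4 and 2 of 2 shared clones of PBS mice 1 to 5, and in 5 of 9, 2 of 3, 4 of 6, 27 of 32 and 4 of 6 of UPEC mice 1 to 5. In PBS mouse 2 neither V11-a nor V11-b had such a sequence. The percentages differed by -7.57 points between the groups (exact Mann-Whitney p = 0.183; without UPEC mouse 4, -11.7, p = 0.175; without PBS mouse 2, -26.5, p = 0.0238). Identical V-D-J sequences also occurred between mice, with 1.6 on average (range 0 to 9) in the 50 pairs of the same group and 2.12 (range 0 to 16) in the 60 pairs across groups, against 6.45 (range 0 to 34) within mice. Without UPEC mouse 4 the means were 1.19, 1.44 and 3.7. The highest values between mice, 16, 15, 9 and 8, were all with its intravascular library. Of the 42 clones read in no other mouse, 35 had an identical V-D-J sequence in both compartments.

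Isotype was read from 9 whole numbers in each sequence identifier, which give the reads per constant region. The names in the identifiers break off after Igha, so the other 8 fields were taken in alphabetical order and the names Ighd, Ighg3 and Ighm here rest on that order, which could not be checked. In 57 of 75 shared clones all reads of both compartments were Ighm, the isotype of B cells that have not switched class. Ighd reads, which unswitched conventional B cells also make, were present in 1 of 19 shared clones of PBS mice and 16 of 56 of UPEC mice, 13 of them in UPEC mouse 4. Per mouse this was 0%, 0%, 50%, 0% and 0% in PBS mice 1 to 5 and 0%, 0%, 16.7%, 40.6% and 33.3% in UPEC mice 1 to 5. Among the other clones, Ighd reads were present in 18.8% ± 3.88 (SD, n = 6) in PBS mice and 20.3% ± 3.7 (SD, n = 5) in UPEC mice. The 50% of PBS mouse 3 was 1 of 2 clones, V11-b. The difference of 8.13 points did not pass the threshold (exact Mann-Whitney p = 0.524; without UPEC mouse 4, 2.5, p = 0.683).

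In UPEC mouse 4, Ighd reads were present in 9 shared clones in the extravascular and in 8 in the intravascular library, and in both in 4. Ighd alone was read in both compartments in 3 of its clones, Ighd alone in the extravascular and Ighm alone in the intravascular library in 4, and the reverse in 2. Reads of a switched isotype were found in 1 of all 75 shared clones, V11-c in UPEC mouse 1, with 3 reads in the Ighg3 field of its extravascular library beside 7 Ighm reads. Among the other clones, such reads were present in 1.38% ± 0.58 (SD, n = 6) in PBS mice and 3.09% ± 2.48 (SD, n = 5) in UPEC mice.

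The 32 shared clones of UPEC mouse 4 differed from those of the other mice in most of these measures at once. They were 9.25% of its distinct extravascular and 8.04% of its distinct intravascular junctions, against at most 4.52% and 2.89% in any other mouse. Of the 32, 28 were read in no other mouse, 24 used V segments other than Ighv11-2 and Ighv12-3, and 16 were a single sequence in each library. Of these 16, 15 were read in no other mouse and 14 had identical V-D-J sequences, with a median of 2 extravascular and 3.5 intravascular reads. Its libraries held 743 and 938 sequences, the latter the most of any intravascular library. In the other mice at most 3 shared clones were single in both compartments. The part of library size and of low read counts in the number of UPEC mouse 4 was not tested. Whether the sorted fractions or the libraries of this mouse were fully separate was not tested either. With sequences of at least 3 reads only, the difference in the number of shared clones between the groups was 4.87 (exact p = 0.0779; without UPEC mouse 4, 2.42, p = 0.152), and with at least 2 sequences in each compartment it was 1.67 (exact p = 0.247; without UPEC mouse 4, 0.667, p = 0.467).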

How the data were processed

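Igh transcripts of sorted kidney B cells were sequenced in 22 libraries, 2 from each of 11 mice. Per the methods, the authors filtered reads with QUASR, required consensus between reads of a barcode, matched constant regions and V and J genes to IMGT, dropped those seen in one read only and ran IMGT/V-QUEST. The deposited tables hold 119 columns of nucleotide sequences, segment names and positions, with no normalized value. Each identifier carries 9 whole-number read counts per isotype, as the authors deposited them. The genome build is not given in the sources used here. Of the 17178 lines, 730 repeat the V-D-J sequence of another line of their library, and each has at least 2 reads.

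Clones were matched on the junction alone with Python 3.11.15, pandas 2.3.3 and scipy 1.17.1, and tested on simulated data. The first V and J name was taken where several were given (4.94% of V names). Sequences without a D segment (2.29%) had no N length. Both libraries of a mouse enter a value together, since their titles carry the mouse's number, and equal numbers in PBS and UPEC mice are different animals. Groups were compared by two-sided exact Mann-Whitney tests over 462 assignments (252 for 5 against 5) and mice against 0 by exact signed-rank tests, with Benjamini-Hochberg adjustment over the 14 comparisons between groups. The signed-rank test of N length in shared against other clones was computed but is not given, since the choice of clones is not independent of N length. Clones named are the largest of each mouse, those shared in at least 2 mice and those with at least 5 sequences in each compartment, and V segments those of at least 2 shared clones. Any other name was picked with its values in view. The members and measures were chosen with earlier results of these data known. Alternatives covered the clone definition, depth, reads, weighting, the test, the background and each mouse left out.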

Additional observations from a re-analysis of the deposited data

Results flagged for a closer look

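A mouse far from the others of its group was found in 8 of 29 combinations of measure and group. A chance level of about 1.45 would hold for independent measures only. These overlap, since the excess over other mice is taken from the number of shared clones, so the 8 cannot be set against it. UPEC mouse 4 had 32 shared clones, 29.25 beyond the level between mice and 25% of shared clones with Ighv11-2 or Ighv12-3. PBS mouse 1 stood apart with 3.62% of intravascular sequences in shared clones, and UPEC mouse 3 with an extravascular minus intravascular share of 15.8 percentage points. The remaining values rest on 1 or 2 clones. In PBS mouse 3, 50% of shared clones had Ighd reads, in UPEC mouse 1, 11.1% had reads of a switched isotype, and in PBS mouse 2, 0% had an identical V-D-J sequence in both compartments.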

How the results depend on the processing

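Of 190 values under alternatives other than leaving out a mouse alone, 173 kept their direction and their side of the threshold, 7 lost the call, 8 gained it and 2 changed direction. The excess over other mice, for all mice together, was 3.6 without junctions found in a mouse outside the compared pair (exact p = 0.0508). It was 1.51 with at least 2 sequences in each compartment (exact p = 0.0869). The UPEC minus PBS percentage of intravascular sequences no longer passed with junction amino acids (4.79), weighted by reads (6.52) and without the largest shared clone of each mouse (4.01). Per 10000 pairs of junctions, the number (0.827) and the excess over other mice (0.685, exact p = 0.0303) passed. With sequences of at least 3 reads, the percentage without N nucleotides (-37.7) and that found in another mouse (-40.5) passed, and the percentages of extravascular sequences (-0.628) and of clones with an identical V-D-J sequence (16) changed direction without passing. Weighted by extravascular sequences, the N length of shared minus other clones differed between groups by 1.57 and passed. Other settings were added after the data were seen. The extravascular to intravascular size without clones of a single sequence in each compartment passed (-1.73). With UPEC mouse 4 left out too, the number (0.532) and the excess (0.392) per 10000 pairs passed, and the excess for all mice did not with at least 3 reads (1.61) or at least 2 sequences (1.13). The clone definitions among these added settings were run for the number and the excess only, and changed no call there. The number differed by 7.6 for identical V-D-J sequences and by 7.83 with variants at 1 nt merged.

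Leaving out single mice, the UPEC minus PBS difference lay between 2.83 and 10.1 for the number of shared clones, 2.37 and 8.7 for the excess over other mice, -2.31 and 3.95 for the percentage of extravascular and 2.48 and 6.15 for that of intravascular sequences. It lay between -11.7 and 11.7 for Ighv11-2 or Ighv12-3, -11 and 9.72 for Ighj1, -45.8 and -25.8 for clones without N nucleotides, -43.5 and -17.1 for clones found in another mouse and -26.5 and -1.46 for an identical V-D-J sequence. No other result changed its direction or its call. The cause of these changes was not tested. For the excess over other mice and for clones found in another mouse, a mouse left out also no longer counted among the other mice.

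Without the replicate block, that is without the pairing of the libraries of a mouse, the extravascular minus intravascular difference of 8.22 points in PBS mice and 3.37 in UPEC mice gave exact Mann-Whitney p = 0.255 and 0.548, and changed no call. Pairing follows from the mouse number in the titles. The number of mice limits all comparisons. The 244 sequences of the smallest library, that of UPEC mouse 1, limit those at an equal number of sequences, where reads were not matched. A signed-rank test cannot reach the threshold with 5 nonzero differences. Leaving out the clones of 1 mouse that lie 1 base from a larger clone of that mouse, a choice made after seeing the data, changed no call between groups on N nucleotides: the difference from other clones was -4.72 over all mice (without UPEC mouse 4, -5.07), and it differed between groups by 1.04 (exact p = 0.222; without UPEC mouse 4, 0.38, p = 0.413).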
